A study of Mus musculus with 6 samples.

Results

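The 6 tumors of the series were set against each other by how much keratinocyte RNA each held. B16 is a mouse melanoma cell line that grows as a tumor in C57BL/6 mice of its own genetic background. Each tumor came from 400000 inoculated B16 cells and was taken on day 8, when its area was either 70 to 80 mm2 (large, L1, L2 and L3) or 10 to 20 mm2 (small, S1, S2 and S3), and was cut free of the normal tissue around it. No genotype or drug distinguished the groups, and neither the age nor the sex of the mice is stated in the labels. Total RNA (100 ng) was amplified in repeated rounds and hybridised to 1 Illumina bead array per tumor. The labels say nothing of how many mice or inoculation days the replicates stand for, so p-values measure only the spread between these 6 samples. The classes were chosen by measured values of these same arrays, the signals of keratinocyte genes such as Krt14 and Lgals7: L1, S2 and S3 had the higher keratinocyte signal and L2, L3 and S1 the lower. All 6 arrays fall in 1 of the classes, 3 in each, and both classes hold tumors of both sizes. Because the arrays were sorted by what they measured, differences between the classes are given as description, with no test, and the contrast of large with small tumors, which did not sort them, is the tested one.

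Keratinocytes build the epidermis in layers. Basal cells, which divide and hold on to the basement membrane, carry the keratin pair Krt5 and Krt14. Cells that leave the basal layer switch to Krt1 and Krt10 and then make the cornified envelope from loricrin, involucrin and small proline-rich and late cornified envelope proteins, while wounded or inflamed epidermis makes Krt6, Krt16 and Krt17. Hair follicles, which grow in cycles, have keratins of their own in the inner root sheath and the hair shaft. None of these is a normal product of melanoma cells.

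Values below are log2 of the background-corrected, quantile-normalized bead signal, each gene represented by its brightest probe. A difference of 1 is a doubling. For each gene the class difference was taken inside each tumor size, as L1 minus the mean of L2 and L3, and as the mean of S2 and S3 minus S1, and the mean of both is called the rich-minus-poor difference. A gene was counted as moving with the keratinocyte signal when both within-size differences were at least 1 in the same direction and the 3 arrays of each class did not overlap. A gene with a probe not detected on any array of a class has only a bound there, so its fold is written as "at least", against the lowest signal among detected probes. Like the difference, this bound is a mean over both sizes and need not hold in each. A gene detected on only some of the poor arrays is given a plain difference. That difference rests in part on values below this lowest signal, so its size depends on how background is handled. Levels of different genes come from different probes and are not compared.

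Of 10523 genes detected on at least 3 of the 6 arrays, 158 were counted as higher in keratinocyte-rich tumors (1.5%) and 1 as lower (0.0095%). Since the classes were chosen by keratinocyte signal, nothing is read from these shares. Of the 158, 70 stood in lists of epidermal genes and 88 did not. Over all genes tested the median difference was -0.03. Arrays of the classes were apart, whatever the size of the difference, for 559 genes with the rich arrays above (5.31%) and 607 with them below (5.77%), so separations of any size ran both ways while 158 of the 159 counted ones ran upward. The genes nearest the threshold were Wnt10a and Irx2, whose smaller within-size differences were 1.00 and 1.01, and Plek2 and Lypd6b just outside, at 0.996 and 0.993. In bulk tissue, fewer cells of a type and less RNA per cell cannot be told apart.

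The 2 marker genes show how the classes lie. Krt14 had 14.58, 13.66 and 13.77 in L1, S2 and S3, against 12.98, 7.88 and 4.36 in L2, L3 and S1. L2 lay close under the rich arrays, L3 far below them, and in S1 the probe was not detected. The rich-minus-poor difference was 6.75. Lgals7, which encodes galectin-7 of stratified epithelia, had 13.44, 12.55 and 12.94 in the rich tumors and 10.28, 7.96 and 7.95 in the poor ones, a difference of 4.55. Both genes separate the classes, but S2, the lowest rich array, exceeded L2 by little for Krt14. Without S1 no within-small difference exists, and the difference of Krt14 is then the one within large tumors, 4.09 after the other 5 arrays are normalized alone.

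**Figure D1:**
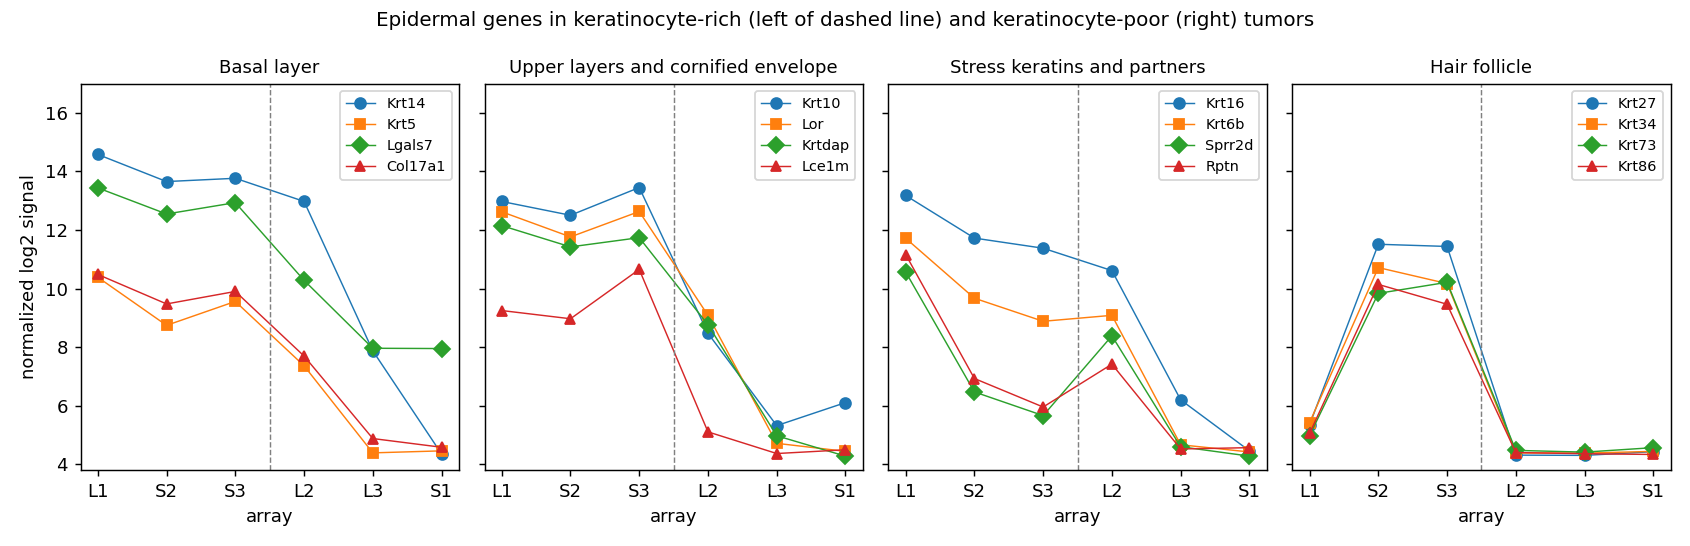
Normalized log2 signal of 16 epidermal genes in 4 panels, by array; L1, S2 and S3 (keratinocyte-rich) stand left of the dashed line and L2, L3 and S1 (keratinocyte-poor) right of it, 1 point per tumor. Basal and upper-layer genes step down to L2 and again to L3 and S1, the stress panel is highest in L1, and the follicle panel is high in S2 and S3 and low on the other 4 arrays.

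Genes of the basal layer were higher in the keratinocyte-rich tumors. All 3 basal keratins tested were counted, with a median difference of 4.60. Krt5, the partner of Krt14, had 10.39, 8.75 and 9.56 in L1, S2 and S3, against 7.37, 4.39 and 4.46 in L2, L3 and S1, a difference of 4.60. Krt15, a keratin of basal and follicle stem cells, differed by 2.55. Of 12 genes for basal adhesion and identity, 7 were counted, with a median of 1.70. Col17a1, the collagen of the hemidesmosome, had 10.48, 9.48 and 9.90 in the rich tumors and 7.70, 4.88 and 4.58 in the poor ones, a difference of 4.65. The water channel Aqp3 differed by 4.01 and Trp63, the transcription factor p63 that basal identity depends on, by 3.56.

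Genes of the upper layers formed the largest group. Of 39 cornified envelope and granular layer genes, 30 were counted, with a median difference of 3.53. Lor, which encodes loricrin, the main protein of the cornified envelope, had 12.62, 11.77 and 12.63 in L1, S2 and S3, against 9.09, 4.72 and 4.45 in L2, L3 and S1, a difference of 6.74. Krtdap, made by differentiating keratinocytes, had 12.15, 11.43 and 11.74 in the rich tumors and 8.77, 4.98 and 4.28 in the poor ones, a difference of 6.29. In both genes L2 stood several log2 units below the rich arrays and several above L3 and S1. Stfa1, a cysteine protease inhibitor of the stefin A group, differed by 6.33, Calm4, a calmodulin-like protein of the epidermis, by 5.56, Dmkn, a secreted epidermal protein, by 5.18, and Asprv1, the protease that processes filaggrin, by 5.04. Lce1b and Lce1m of the late cornified envelope family differed by 4.98 and 4.91, the family neighbour Crct1 by 4.80, and the small proline-rich protein gene Sprr1b by 4.73. Stefin A and late cornified envelope genes are families of close copies, so a probe may also read a relative.

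Of 7 suprabasal and stress keratins, 5 were counted, with a median of 4.85. Krt10 had 12.98, 12.51 and 13.45 in L1, S2 and S3, against 8.48, 5.32 and 6.11 in L2, L3 and S1, a difference of 6.47. The stress keratins Krt17 and Krt16 differed by 6.10 and 5.93. Krt6b, their usual partner, differed by 4.85 but was not counted, because L2 with 9.09 lay above S3 with 8.89.

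The promoters of 3 genes of the upper layers and of 2 follicle keratins described below are printed to show the start region of genes that fell into different array patterns, each as the 100 bases before its start in RefSeq (build GRCm38.p6). Capitals mark matches to TATAAA, the core of a TATA box, and to TGANTCA, the site of AP-1 factors. The regions are chr11:99389365-99389464 (minus strand) for Krt10, chr3:92083143-92083242 (minus strand) for Lor, chr7:30787805-30787904 (plus strand) for Krtdap, chr11:99351119-99351218 (minus strand) for Krt27 and chr11:100041555-100041654 (minus strand) for Krt34.
Krt10: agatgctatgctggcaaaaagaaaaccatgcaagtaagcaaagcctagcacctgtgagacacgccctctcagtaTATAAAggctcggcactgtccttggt
Lor: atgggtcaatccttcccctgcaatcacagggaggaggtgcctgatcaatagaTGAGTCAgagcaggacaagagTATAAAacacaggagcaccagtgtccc
Krtdap: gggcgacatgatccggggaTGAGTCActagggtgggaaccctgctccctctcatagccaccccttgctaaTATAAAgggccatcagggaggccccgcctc
Krt27: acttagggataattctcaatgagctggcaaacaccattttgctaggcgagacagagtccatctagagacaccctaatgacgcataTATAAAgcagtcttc
Krt34: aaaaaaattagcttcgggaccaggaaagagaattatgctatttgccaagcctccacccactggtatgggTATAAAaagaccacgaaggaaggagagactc
All 5 hold a TATAAA, and Lor and Krtdap also hold a TGANTCA, 48 and 81 bases before the start. These 5 were picked by hand and not by a rule, so their matches do not stand for the 158 genes. Promoter windows of 300 bases were at hand for 110 of the 158 genes, 126 windows in all. Searched on both strands, TATAAA was found in 25 of them (19.8%), against 7.81% of the windows of all genes tested and 13.6% of all windows in the table. TGANTCA was found in 23 (18.3%), against 5.43% of windows of genes tested and 7.81% of all windows. GCCNNNGGC, the site of AP-2 factors, was found in 27 (21.4%), against 24.9% of windows of genes tested and 16.6% of all windows. A match is a description of the letters and not evidence that a factor binds.

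Junction, protease, lipid and regulator genes moved in part. Of 7 desmosome and junction genes, 5 were counted, with a median of 2.73. Pkp1 and Pkp3, plakophilins of the desmosome plaque, differed by 3.22 and 2.73, and Cldn4, a tight junction claudin, by 3.13. Gjb6, which encodes connexin 30, differed by 3.10 but was not counted because L2 (7.17) lay above S3 (6.76). Of 13 proteases and inhibitors, 7 were counted, with a median of 1.42. The kallikrein-related proteases of the outer epidermis led them: Klk7 differed by 4.73, Klk6 by 4.46 and Klk8 by 3.42, and Klk5, not detected on the poor arrays, was at least 3.77-fold higher.

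Of 13 barrier lipid genes, 4 were counted, with a median of 0.98. Elovl4, which lengthens the fatty acids of skin ceramides, had 9.40, 8.28 and 8.24 in L1, S2 and S3, against 6.87, 5.56 and 5.74 in L2, L3 and S1, a difference of 2.85. Acer1, an epidermal ceramidase, was at least 5.26-fold higher, Alox12b, a lipoxygenase of the skin barrier, at least 2.17-fold, and Cyp4f39, a fatty acid hydroxylase, differed by 1.83. Of 10 epidermal transcription factors, 6 were counted, with a median of 1.68. Tfap2c, an AP-2 factor, differed by 3.42, Grhl1, a grainyhead factor of epithelial barriers, by 2.26 and Barx2 by 1.86. Zfp750, a regulator of terminal differentiation, was at least 2.85-fold higher.

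The hair follicle genes followed another pattern. Krt27, an inner root sheath keratin, had 5.35, 11.52 and 11.44 in L1, S2 and S3, against 4.32, 4.31 and 4.43 in L2, L3 and S1. It was high in the small rich tumors, near the floor in the large rich tumor, and not detected on the poor arrays. The fold over the poor class, as a mean over both sizes, was at least 10.1, and it does not hold for L1. Krt34, a hair shaft keratin, had 5.43, 10.72 and 10.17 in the rich tumors and 4.39, 4.38 and 4.44 in the poor ones, at least 7.24-fold on the same mean. In both genes L1 lay little above the lowest detected signals of L2 (5.03) and L3 (4.94). Their differences of 1.04 within large tumors reached the threshold only against values below those signals. Krt73 and Krt86, of the root sheath and the shaft, had 4.98 and 5.06 in L1 and 9.47 to 10.22 in S2 and S3, and were not counted because their differences within large tumors were 0.54 and 0.67. Of 9 follicle genes tested, 3 were counted and 8 were not detected on any poor array. The third counted gene, Krt79 of the upper follicle, ran the other way, with 8.54 in L1 and 5.68 and 5.75 in S2 and S3, against 5.02, 4.33 and 4.42 in L2, L3 and S1. Krtap7-1, a hair keratin-associated protein named after its values were seen, had 5.32, 10.44 and 10.03 in L1, S2 and S3, against 4.33, 4.44 and 4.56 in L2, L3 and S1. L1 is the single large rich tumor and S1 the single small poor one, so without L1 only the within-small contrast is left, and without S1 only the within-large one. Of 5 sebaceous gland genes, 0 were counted, and their median was 0.17.

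Among the keratinocyte-rich tumors the epidermal genes were not in 1 ratio. Setting each gene's linear background-corrected signal against its mean over L1, S2 and S3, the median over the 158 genes was 134% in L1, 72.3% in S2 and 92.8% in S3, against 16.1% in L2, 6.92% in L3 and 5.26% in S1. For the 70 in epidermal lists it was 138%, 66.4% and 90.3%, against 14.9%, 2.81% and 2.66%, in the same order. L1 was the highest array for 122 of the 158, S3 for 26 and S2 for 10. The rule left out genes low in L1, such as Krt73 and Krt86, and genes with L2 above S3, such as Krt6b. These medians and counts therefore depend in part on how the 158 were picked. L2 lay above both L3 and S1 for 131 of the 158. Of the 99 genes whose probe was detected on L2 it did so for 92, but detection on L2 itself favors genes that are high there. Krt14 stood at 47.1% in L2, Lgals7 at 14.8%, Lor at 9.84% and Krt10 at 4.08%.

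Rptn and Sprr2d, of the cornified envelope, and the stress keratins Krt6b and Krt16 were higher in L1 than in S2 and S3. Rptn, which encodes repetin, had 11.17, 6.93 and 5.96 in L1, S2 and S3, against 7.42, 4.53 and 4.57 in L2, L3 and S1, so that L1 exceeded the mean of S2 and S3 by 4.72. Sprr2d, a small proline-rich protein gene, exceeded it by 4.50, Krt6b by 2.44 and Krt16 by 1.63. Krt10, by contrast, differed by 0.00 between L1 and the mean of S2 and S3, Krt77 by -0.50 and Lce1m by -0.56. Shares in L2 varied among genes high in L1: 59.4% for Sprr2d, 34.3% for Krt6b, 30.5% for Krt16 and, for Lamb3, a laminin chain of the basement membrane, 66.5%. For Rptn the share was 19.2% and for Krt79 11.6%, against a median of 14.9% over the 70 counted epidermal genes. Rptn, Sprr2d, Lamb3, Krt77 and Krt79 were named after their values were seen.

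**Figure D2:**
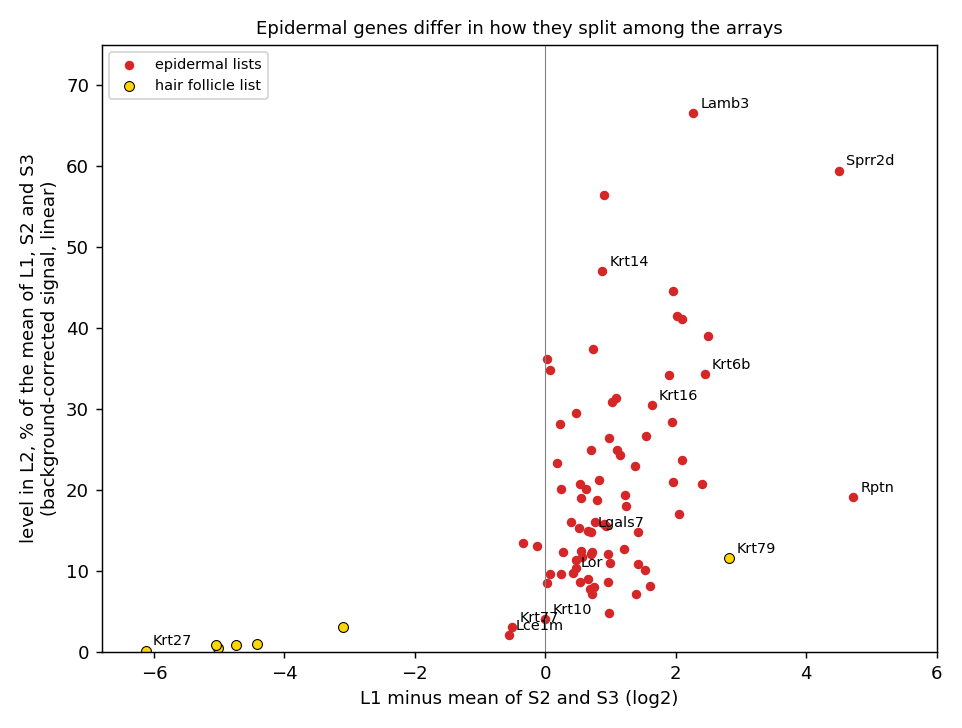
Each of 84 epidermal genes (difference at least 0.5 within large and at least 1 within small tumors) is placed by L1 minus the mean of S2 and S3 (log2, x axis) and by its level in L2 as a percent of the mean of L1, S2 and S3 (y axis). Sprr2d and Rptn lie far right at 4.50 and 4.72, Krt10 and Lce1m near 0 with low L2 shares, and Krt27 far left at -6.12.

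Of 118 epidermal genes tested, 70 were counted and 48 were not. In 9 of the 48 both differences were at least 1 but the arrays overlapped, in 17 the arrays were apart but a difference was under 1, and in 22 neither held. Both within-size differences were above 0 for 104 of the 118, but the classes were chosen by keratinocyte signal, so nothing is read from this count. All 158 counted genes were detected on all 3 rich arrays, and 55 of them on no poor array and 25 on all 3. A gene reaches the tested set by detection on 3 arrays, so one detected only on the rich arrays entered because it was high there: 170 genes tested were of this kind. Of 35 counted genes with several detected probes, every probe differed by at least 1 in 30. The exceptions were Car12, Egr3, Prss27, Rapgefl1 and Spint1.

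The 88 counted genes outside the epidermal lists stood in the same arrays. Fam25c, with the largest difference among them, had 10.45, 9.97 and 10.46 in L1, S2 and S3, against 6.70, 4.66 and 4.32 in L2, L3 and S1, a difference of 5.33. Ly6g6c, a Ly6-family surface protein, had 11.38, 10.41 and 10.80 in the rich tumors and 8.48, 5.25 and 5.10 in the poor ones, a difference of 5.01. Lypd3, a surface protein of the same family made by upper epidermal layers, and Kprp, a keratinocyte proline-rich protein, both differed by 4.95. Several of the leading genes of this group are known from epithelia but stood in no list: Ly6d (3.98), Rab25, a GTPase of epithelial vesicle traffic (3.83), Krt23 (3.65), Pof1b, an actin-binding protein of epithelia (3.59), and Trim29 (3.45). The others named by the rule were 2310011E23Rik (4.95), Urah (3.99), Cstdc5 (3.95), Psapl1 (3.93), Nccrp1 (3.83) and Gm94 (3.74).

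Further members of this group, named after their values were seen, have known epithelial roles too. Esrp1 and Esrp2, splicing factors of epithelial cells, differed by 2.64 and 2.16, and Fgfr2, whose epithelial isoform they help to make, by 2.52. Epgn, a ligand of the EGF receptor, differed by 3.04, Hal, which makes urocanic acid in the epidermis, by 3.08, and the ligands Wnt4 and Wnt10a by 1.32 and 1.18. On the poor arrays Esrp1, Esrp2, Fgfr2 and Wnt4 lay below the lowest signal among detected probes, and Hal and Wnt10a lay near it. Their differences are therefore taken against the floor, and no fold is given for them. Of the 88, 85 stood in none of the 33 lists. The other 3 were S100a14, a calcium-binding protein of epithelia, with a difference of 3.35, the defensin Defb6, at least 3.35-fold higher, and Egr3, an immediate early factor, with 1.37. A second Egr3 probe differed by -0.24, so that gene rests on 1 of its probes. Another 16 probes without a gene name were counted as higher and 0 as lower.

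**Figure D3:**
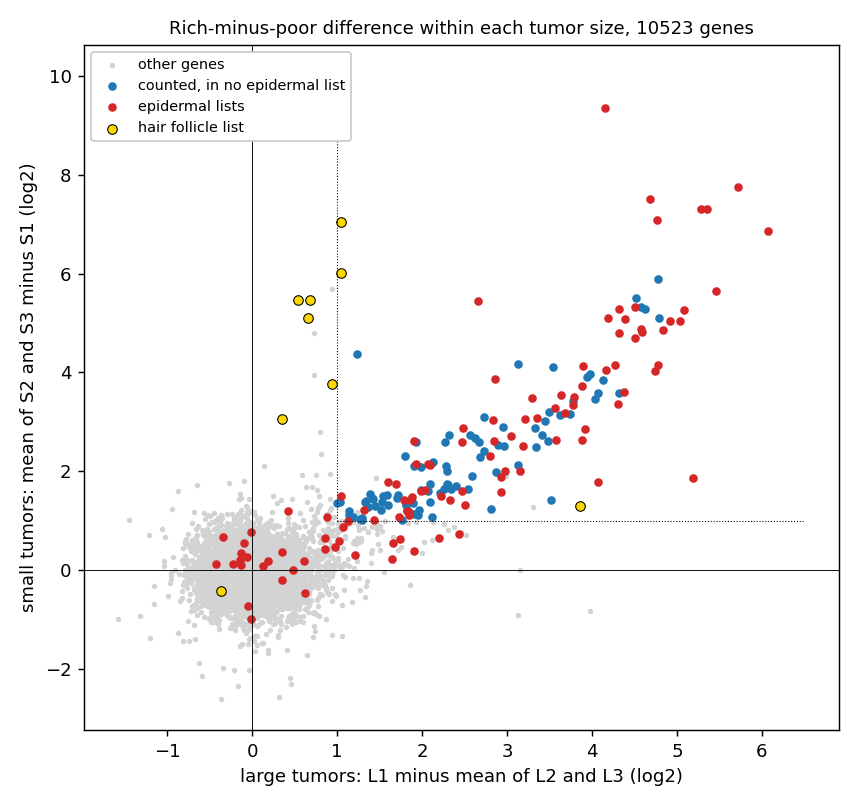
Each point is 1 of 10523 genes, placed by its rich-minus-poor log2 difference within large tumors (x axis) and within small tumors (y axis); dotted lines mark the threshold of 1. Most genes of the epidermal lists (red) and the counted genes outside them (blue) spread along the upper right, and most follicle genes (yellow) lie high on the y axis with x near 1 or below.

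Across all 10523 genes the differences within large and within small tumors had a Pearson correlation of 0.554, given as a description, since genes share the arrays. Without the epidermal lists it was 0.334 over 10405 genes. Without the counted genes as well it was 0.019 over 10316 genes, and leaving those out removes genes that agree by construction.

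The only gene counted as lower was Myl4, a myosin light chain of embryonic and atrial muscle. It had 7.93, 7.51 and 7.64 in L1, S2 and S3, against 9.17, 9.09 and 8.94 in L2, L3 and S1, a difference of -1.29. The classes did not overlap, and neither class spread over more than 0.5. With median scaling the difference was -0.92 and Myl4 was no longer counted. The skeletal muscle list did not move with it: 0 of 24 genes were counted, with a median of 0.04.

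Markers of the other tissues of skin were not counted, though some lay above the median of all genes. Of 21 dermal fibroblast and matrix genes, 0 were counted, with a median of 0.17 (0.40 within large and -0.14 within small tumors). Col1a1, the main dermal collagen, had 10.49, 9.42 and 10.00 in L1, S2 and S3, against 10.01, 9.52 and 9.38 in L2, L3 and S1, and the classes overlapped. Thy1 was apart, but by 0.58. Of 7 adipocyte genes, 0 were counted, but 3 were apart with the rich arrays above, against 5.31% of all genes. Their median was 0.42, with 0.56 within large and 0.59 within small tumors, and Adipoq and Plin4 differed by 0.97 and 0.95. Of 6 smooth muscle genes, 0 were counted, and 3 were apart with the rich arrays above. Their median was 0.79, with 0.84 within large and 0.68 within small tumors. Actg2 differed by 1.66 with overlapping arrays, and Myh11, a smooth muscle myosin, was apart with 1.07 but had a within-size difference under 1. No gene was counted among 16 endothelial genes (median 0.16), 8 Schwann cell and nerve genes (-0.11), 8 mast cell genes (0.10) or 4 red blood cell genes (-0.30). The red blood cell median joined 0.62 within large and -1.21 within small tumors. The label calls the classes skin-rich and skin-poor. Outside the epidermal lists, only the alarmin and immediate early lists held a counted gene, and the dermal list was near the median of all genes, so the classes are named here by the keratinocyte genes that chose them. Of the epidermal lists, that of the sebaceous gland held none either.

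Most tumor cell and immune lists had medians near that of all genes, but a small median can average opposite differences inside the sizes. The macrophage and monocyte list had 0.42 within large and -0.40 within small tumors. For the hypoxia and glycolysis list these were -0.27 and 0.35. The pigment genes that mark B16 cells were detected on every array: Dct, an enzyme of melanin synthesis, had 14.79, 14.73 and 14.78 in L1, S2 and S3, against 14.76, 14.83 and 14.72 in L2, L3 and S1. None of 17 melanocyte and pigment genes was counted, and their median difference was 0.01. The medians were 0.02 for 23 cell cycle genes, 0.02 for 16 hypoxia and glycolysis genes, 0.14 for 16 endoplasmic reticulum chaperone genes, -0.02 for 13 ribosomal protein genes and -0.05 for 12 immediate early genes, of which Egr3 was counted. Among immune lists, 0 genes were counted of 11 neutrophil genes (median 0.03), 16 macrophage and monocyte genes (0.01), 9 dendritic cell genes (0.03), 13 T cell and NK cell genes (0.13) and 9 MHC class II genes (0.20). Of the 2 genes tested from the list of Langerhans cells and skin gamma-delta T cells, Cd3g differed by 0.55 and Cd1d1 by 0.33, and neither was apart.

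Genes induced by interferon-gamma had a median of 0.36, with 0 of 17 counted, and ran differently inside each size: the median difference was -0.10 within large tumors and 0.87 within small tumors. Gbp7, a guanylate-binding GTPase, had 5.78, 8.20 and 8.58 in L1, S2 and S3, against 5.56, 6.03 and 7.19 in L2, L3 and S1. It was highest in the small rich tumors, and the large rich tumor lay among the poor ones. Tgtp1, another GTPase of this group, differed by -0.10 within large and by 1.80 within small tumors. Whether the class difference itself differs between the sizes was not tested. Between the sizes, 13 of the 17 genes were called lower in large tumors by limma, against 1.68% of all genes, and Gbp7 had a large-minus-small difference of -2.20 (adjusted p = 0.0381 by limma).

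The series title names interleukin-1 alpha, and its family was examined in all 14 members tested. Il1a itself is not analysed here. None of the 14 was counted, and the median difference was 0.17. Il1f5, the interleukin-36 receptor antagonist of epithelia, had 5.99, 5.45 and 5.13 in L1, S2 and S3, against 4.68, 4.37 and 4.45 in L2, L3 and S1. It was the only member whose arrays were apart, and as it was not detected on the poor arrays it was at least 1.47-fold higher. Il33, an alarmin of barrier cells, had 9.08, 7.60 and 8.15 in the rich tumors and 7.52, 6.92 and 8.17 in the poor ones, and the classes overlapped. Il1b, the cytokine interleukin-1 beta, had 7.11, 6.72 and 8.94 in the rich tumors and 6.49, 6.49 and 8.00 in the poor ones, also with overlap. The receptors Il1r1 and Il1r2 differed by 0.34 and 0.29, Casp1, which cuts the precursor of interleukin-1 beta, by 0.25, Il1f10 by 0.18, Il18 by 0.17 and the receptor antagonist Il1rn by 0.03. Il18rap differed by -0.01, the adaptor Myd88 by -0.02, Il1rap by -0.10, Sigirr by -0.20 and Il18bp by -0.34. The signs of Il1rn, Il18rap, Myd88, Il1rap, Sigirr and Il18bp turned under another normalization or probe rule, so no direction is given for them. Without L1, which leaves only the within-small contrast, Il33 (-0.29), Il18 (-0.24), Il1b (-0.16) and Casp1 (-0.12) also turned. The directions of Il33, Il18 and Casp1 thus rest on L1. That of Il1b, which turned without S3 as well (-0.33), rests on both arrays.

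Of 11 epidermal alarmin and antimicrobial genes, S100a14 and Defb6 were counted, with a list median of 0.48. Defb14 differed by 2.44 but L2 (7.21) lay above S2 (6.68) and S3 (5.90). S100a9, an alarmin of neutrophils and stressed keratinocytes, had 10.13, 6.38 and 5.31 in L1, S2 and S3, against 7.38, 4.92 and 6.68 in L2, L3 and S1. It was highest in L1, and the classes overlapped.

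**Figure D4:**
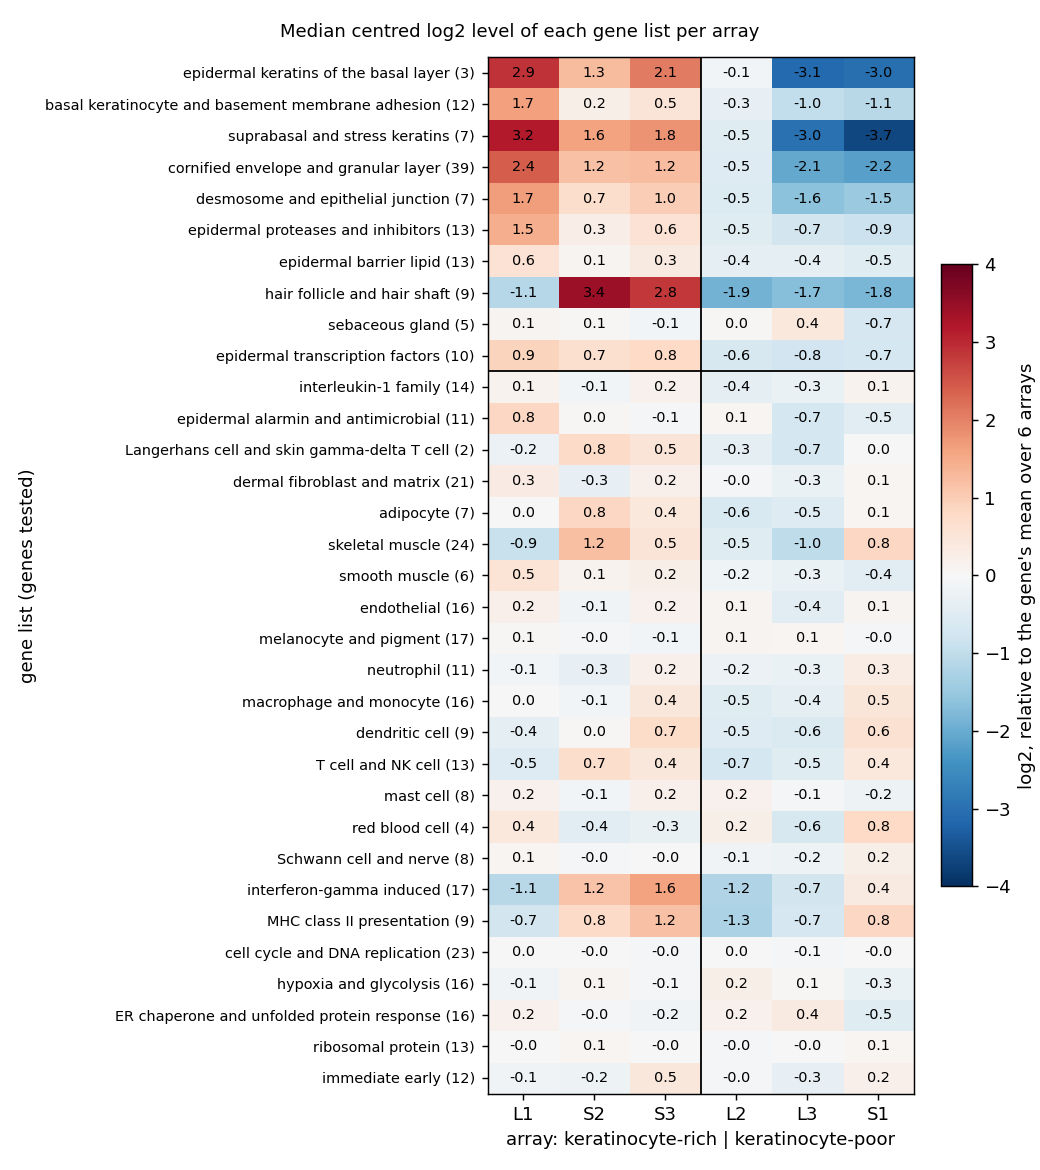
Median log2 level of each of 33 gene lists on each array, each gene centred on its mean over the 6 arrays; columns are L1, S2 and S3 (keratinocyte-rich) then L2, L3 and S1 (keratinocyte-poor), and the number of genes tested stands beside each list. The epidermal lists above the line are red on the rich arrays, except the follicle list in L1 (-1.14) and the sebaceous list, which is near 0, and most lists under it stay within about 1 of 0.

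Tumor size was then tested on the same genes, since size labels did not choose the classes. With limma and Benjamini-Hochberg adjustment over 10523 genes, 260 genes differed between large and small tumors at an adjusted p under 0.05 (2.47%), 83 higher and 177 lower in large tumors, while 2371 had an unadjusted p under 0.05 (22.5%). With median scaling in place of quantile normalization the split was 96 higher and 66 lower, and without background correction 179 higher and 225 lower. Of the 118 epidermal genes, 0 were called by limma, and 10 had an unadjusted p under 0.05. Of the 158 genes that moved with the keratinocyte signal, 0 were called, and Krt27 alone had an unadjusted p under 0.05 (large minus small -4.47, adjusted p = 0.211 by limma). The 158 were picked for differing among tumors of the same size, and many epidermal genes are among them. That difference is part of the spread this fit tests against, so few calls were built in and nothing is read from them. Krt14 differed by 1.22 ± 2.85 (SE, 3 tumors each) between large and small tumors (adjusted p = 0.842 by limma) and Lgals7 by -0.58 ± 1.73 (adjusted p = 0.879 by limma). A p that misses the threshold does not show that the sizes were alike.

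These counts change when 1 array is left out. Without S1 both small tumors left are keratinocyte-rich while L2 and L3 of the large ones are poor, so size and class are then confounded. In that fit limma called 81 genes in all and 7 epidermal ones, all of the follicle list and all lower in large tumors: Krt27 (-6.90), Krt34 (-5.79), Krt73 (-5.49), Krt86 (-5.29), Krtap3-1 (-4.94), Tchhl1 (-3.79) and, with the smallest difference, Krt26, with adjusted p = 0.00396 to 0.0291. S1, on which the follicle genes are at the floor, had the weakest raw signal, its 95th percentile being 949 against 1478 to 1997 on the others, and 17310 detected probes against 18331 to 19771, and the part of this in the result was not tested. Without L1, which leaves only keratinocyte-poor large tumors, or without L3, 0 genes were called (2309 and 1593 with an unadjusted p under 0.05), without S3 1 gene and without L2 29. The count of 158 genes higher in keratinocyte-rich tumors was 240 without S1, with all 158 among them, but under a looser rule, since only the within-large condition is then left.

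Taking account of the keratinocyte class moved the size calls. With the class as a term in the limma fit 138 genes were called, of which 114 were among the 260, and with the mean level of Krt14 and Lgals7 as a covariate 225 were called, of which 189 were shared. Class and size had a correlation of -0.333 over the 6 arrays. With the class term, Car12, which encodes a carbonic anhydrase, was the only one of the 158 genes called between sizes, with a large-minus-small difference of 1.19 (adjusted p = 0.0454 by limma).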

How the data were processed

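Gene expression was measured in 6 B16 tumors, 3 large and 3 small, on Illumina bead arrays read with GenomeStudio, per the submitters' processing notes, which give no version or settings. Per the file headers, the deposited values are each probe's mean bead intensity, with a detection p-value. Background was still present, since the lowest intensity on an array was 84.2 to 98.4. The authors' other table gives processed intensity for 20346 of the 45281 probes, with a lowest value of 28.8; how the authors corrected and normalized it is unknown, and it served only as an alternative.

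With neqc of limma 3.58.1 (R 4.3.3, offset 16), background inferred from the detection p-values was removed, and signals were quantile-normalized and put on the log2 scale. A probe was kept when detected (p under 0.05) on 3 or more of 6 arrays, which left 19120. Names came from the platform annotation, updated by Entrez identifier through RefSeq (GRCm38.p6): 17300 probes had 1 symbol, 11 several and 3035 none, and 17278 matched. A single symbol was held by 16256 of those kept, and the brightest probe of each gene gave 10523 genes. No pair of arrays shared signals (0% of probes equal).

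The classes and the gene lists were chosen with earlier results of these data known. Class differences were computed within tumor size and carry no test. Large and small tumors were compared with lmFit and eBayes of limma, adjusted by Benjamini-Hochberg, on all 6 arrays; both computations were tested on simulated data with 200 changed genes. Genes were named by rule: Krt14 and Lgals7, the 15 largest rises inside and outside the epidermal lists and the 15 largest falls among counted genes, the 4 members with the largest difference of each list with a counted gene and 2 of any other list, and all interleukin-1 family members tested. The lists covered layers and appendages of the epidermis, other cells of skin and tumor, immune cells, and programs of tumor cells. Alternatives were another offset, no background correction, cyclic loess, median scaling, the authors' table, 3 detection filters, 2 probe rules, a replicate block, added covariates, a trended and robust prior, other thresholds and leaving out each array. The small number of arrays limits the precision.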

Additional observations from a re-analysis of the deposited data

Results flagged for a closer look

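In all, 13 named genes had differences of opposite sign inside large and inside small tumors, with L1 on one side of both L2 and L3 and both S2 and S3 on the other side of S1. Of all 10523 genes tested, 2965 did so, 109 with both differences at least 0.5 in size, and the difference between the sizes was not tested for any of them. Values are the rich-minus-poor difference within large tumors minus that within small tumors, on the log2 scale.

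S100a9, an alarmin, had 4.81 (3.98 within large and -0.83 within small tumors). Among the interleukin-1 family, Il33 had 2.15 (1.86 and -0.29), Il18bp 0.87 (0.09 and -0.78), Il18 0.83 (0.58 and -0.25), Myd88 0.55 (0.26 and -0.29) and Il18rap -0.36 (-0.20 and 0.17). The red blood cell genes Alas2 and Hba-a1 had 2.37 (0.64 and -1.72) and 2.08 (0.72 and -1.36), and S1 was the highest array for both. Egln3, a hypoxia-induced prolyl hydroxylase, had 1.8 (1.17 and -0.64), and Cd14, a monocyte receptor, 0.83 (0.16 and -0.67). Tgtp1, an interferon-induced GTPase, had -1.9 (-0.10 and 1.80), H2-DMb2, of the MHC class II pathway, -1.04 (-0.26 and 0.78), and Oca2, a pigment gene, -0.93 (-0.16 and 0.77). Each within-small value rests on S1 as the single poor array, and each within-large value on L1 as the single rich array.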

How the results depend on the processing

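The 158 genes higher in keratinocyte-rich tumors became 102 with an offset of 50, 79 without background correction, 25 when a gene had to be detected on all 6 arrays and 256 with within-size differences of at least 0.6; leaving out 1 array gave 154 to 240. Within that range the values without L1 (214) and without S1 (240) are under a looser rule, because 1 of the sizes then gives no difference; leaving out another array gave 154 to 170. All genes counted under the first 3 of these settings were among the 158. The authors' table gave 130, 119 of them shared. The 1 lower gene became 0 without background correction, with median scaling and with differences of at least 1.5, and 13 with differences of at least 0.6. It became 6 with the replicate block and 4 with class means that ignore tumor size, both under a looser rule that asks for 1 difference of at least 1. Leaving out 1 array gave 1 to 19, where the values without L1 (19) and without S1 (9) are also under a looser rule. Median scaling moved the median difference of all genes to 0.28, against -0.03. Lor and Krt5, each detected on 1 poor array, differed by 5.01 and 2.86 without background correction, against 6.74 and 4.60. In that setting 56 named genes moved by at least their spread around size and class, and 63 did not. Of the 119 named genes, 56 were counted, and 0 of these changed sign under the alternatives run. Among the other named genes, 29 changed sign under some alternative, 12 of them under another normalization, table or probe rule, such as Myd88 (-0.02, against 0.02 with cyclic loess) and Il18rap (-0.01, against 0.01 without background correction).

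The 260 genes called between large and small tumors became 404 without background correction, 162 with median scaling, 402 with detection on all 6 arrays, 534 with every probe on its own, 138 with the class term and 656 with a trended and robust prior; leaving out 1 array gave 0 to 297. The 0 epidermal genes called became 5 probes with every probe on its own (3 of Dst, 1 each of Gjb2 and Smpd1), and 0 to 7 on leaving out 1 array. With the replicate block 109 genes were called, 7 higher and 102 lower, and 217 genes were counted as higher in keratinocyte-rich tumors. That count is under a looser rule, since 1 fitted difference of at least 1 replaces both within-size conditions. The correlations of same-numbered deviations were -0.554, -0.067 and -0.453, and no array correlated best with its own number. Each number joins a keratinocyte-rich with a keratinocyte-poor tumor, so these values cannot tell whether same-numbered tumors share a day or batch. The cause of these changes was not tested, except that stricter detection leaves fewer genes (9152) to count. Signal over background limits the genes near the floor, above all on S1. The class differences rest on 3 arrays a class and, inside a size, on 1 array of 1 of the classes.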
